A study of Mus musculus with 27 samples.

Results

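Adipose tissue and skeletal muscle taken from the same 4 male MlxKO mice at 5 months of age were compared gene by gene. The comparison uses 8 of the 27 libraries of the series, 4 from adipose and 4 from muscle, and each mouse gave 1 library of each tissue. The mice are called A, B, C and D here, in ascending order of their identification numbers in the labels. All 4 mice carried Mlx Flox/Flox alleles and a tamoxifen-dependent Cre (allele Gt(ROSA)26Sortm1(cre/ERT2)Tyj on a B6.129 background), and all received 5 daily intraperitoneal tamoxifen injections of 75 mg/Kg in corn oil at weaning, once they weighed at least 15 g. The Cre is driven from the ROSA26 locus, which is active in most cell types, so the deletion was not aimed at either tissue. WT mice are not analysed here, and the differences described are between 2 tissues of knockout mice, not between genotypes. The adipose samples are labelled omental adipose tissue. RNA of both tissues was extracted with the same lipid-tissue kit according to the labels. In bulk tissue, fewer cells of a type and less RNA per cell cannot be told apart.

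White adipocytes store triacylglycerol in a single large droplet coated by perilipins, release fatty acids from it when beta-adrenergic receptors are engaged, and secrete hormones such as leptin and adiponectin. Skeletal muscle fibres are long syncytia filled with sarcomeres, the repeating units of myosin and actin filaments, whose contraction is triggered by calcium released from the sarcoplasmic reticulum. Fast fibres rely mainly on glycogen breakdown, glycolysis and the phosphocreatine buffer, whereas slow fibres rely more on mitochondrial oxidation. Each tissue also holds vessels, fibroblasts, nerves and immune cells, and visceral adipose depots are covered by a sheet of mesothelial cells.

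The values are CPM, read counts scaled to the depth of the library, divided by a factor that the authors' software set for each library. Whenever 4 values are listed for a tissue, they follow the order of mice A, B, C and D. Adipose libraries held 15141861 to 21276867 reads assigned to genes and muscle libraries 14384695 to 17073669, and 1 read was worth 0.0291 to 0.0369 in adipose and 0.0697 to 0.0806 in muscle. Pearson correlations of log2(value + 1) between libraries ran from 0.935 to 0.974 within adipose, from 0.962 to 0.984 within muscle and from 0.601 to 0.682 between the tissues. Differences are adipose minus muscle on the log2(value + 1) scale, fitted with limma with the mouse as a block, ± SE. A gene was called when its Benjamini-Hochberg adjusted p fell below 0.05 over the 13551 genes tested.

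The tissue labels were checked against defining markers. Summed over 13 markers of muscle fibres, the level was 209798 to 253350.0 in muscle and 333, 522, 1026 and 1165 in adipose. Summed over 11 adipocyte markers, it was 10075 to 17870.4 in adipose and 475 to 579 in muscle. Mesothelial markers summed to 138 to 241 in adipose and to 3.77 to 6.65 in muscle, where 5 to 7 of the 12 were at 0. All 8 libraries thus expressed markers of the tissue, adipose or muscle, that their labels name. These markers do not separate omental adipose from other visceral depots, and the depot was not tested.

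Muscle transcripts in adipose were not spread evenly over the mice. As a share of the level in the same mouse's own muscle, the median muscle fibre marker reached 0.00751% in the adipose of mouse A, 0.272% in that of mouse B, 0.251% in that of mouse C and 0.563% in that of mouse D. Myh4, the fastest myosin heavy chain, stood at 2.01, 139, 227 and 239.6 in adipose. In the adipose library of mouse A, 9 of the 13 fibre markers lay below a value of 1, and in the other 3 adipose libraries none did. Acta1, skeletal muscle alpha-actin, did not follow this order of mice at 323, 104, 428 and 403. It had the same order as the smooth muscle actin Acta2 (298, 145, 595 and 479.9), a gene of similar sequence. In muscle Acta1 stood at 34371, 30911, 33318 and 25481.5. Acta2 was higher in adipose than in muscle in every mouse, by 0.87 to 3.57 on the log2 scale. How the counting split reads between Acta1 and Acta2 was not tested. In the opposite direction, the median adipocyte marker in muscle stood at 1.91%, 3.87%, 0.956% and 2.13% of the same mouse's adipose. How far these transcripts entered with cells of the other tissue was not tested.

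**Figure D1:**
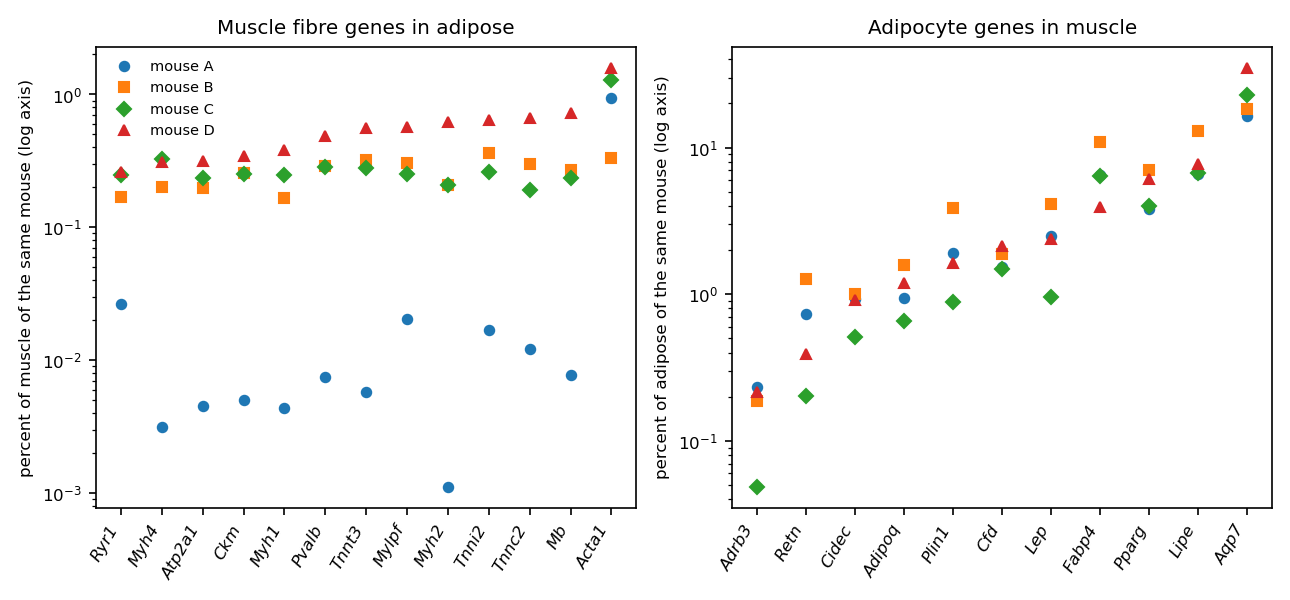
Left, each of 13 muscle fibre markers in adipose as a percent of its value in the muscle of the same mouse; right, each of 11 adipocyte markers in muscle as a percent of its value in the adipose of the same mouse; both vertical axes are logarithmic and each symbol is 1 mouse. In adipose the circles of mouse A lie far below the other 3 mice for most markers, with medians of 0.00751% against 0.251% to 0.563%, and in muscle the medians lie between 0.956% and 3.87%.

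The tissues differed in most of the genes they expressed. Of the 13551 genes tested, 5432 (40.1%) were higher in adipose and 4404 (32.5%) were higher in muscle, and the 4 adipose and 4 muscle values did not overlap for 8895 (65.6%). A change of more than 2-fold was called for 1728 genes (12.8%) higher in adipose and for 1702 (12.6%) higher in muscle. Since most genes were called, the counts of called members below are to be read against these percentages. The balance between the directions depends on the scaling of the libraries. The 20 most abundant genes took 27.4 to 29.2% of muscle reads and 9.56 to 14.2% of adipose reads, and the median gene differed by 0.14 with the deposited factor, 1.02 on plain CPM and 0.77 after rescaling without those 20 genes. On plain CPM 9252 genes were higher in adipose and 1940 in muscle, and without the 20 genes 8137 and 2481. Median-of-ratios scaling turned the balance slightly toward muscle, with 4817 higher in adipose and 4925 in muscle (1493 and 1976 beyond 2-fold). All differences given here are relative to the deposited scaling.

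**Figure D2:**
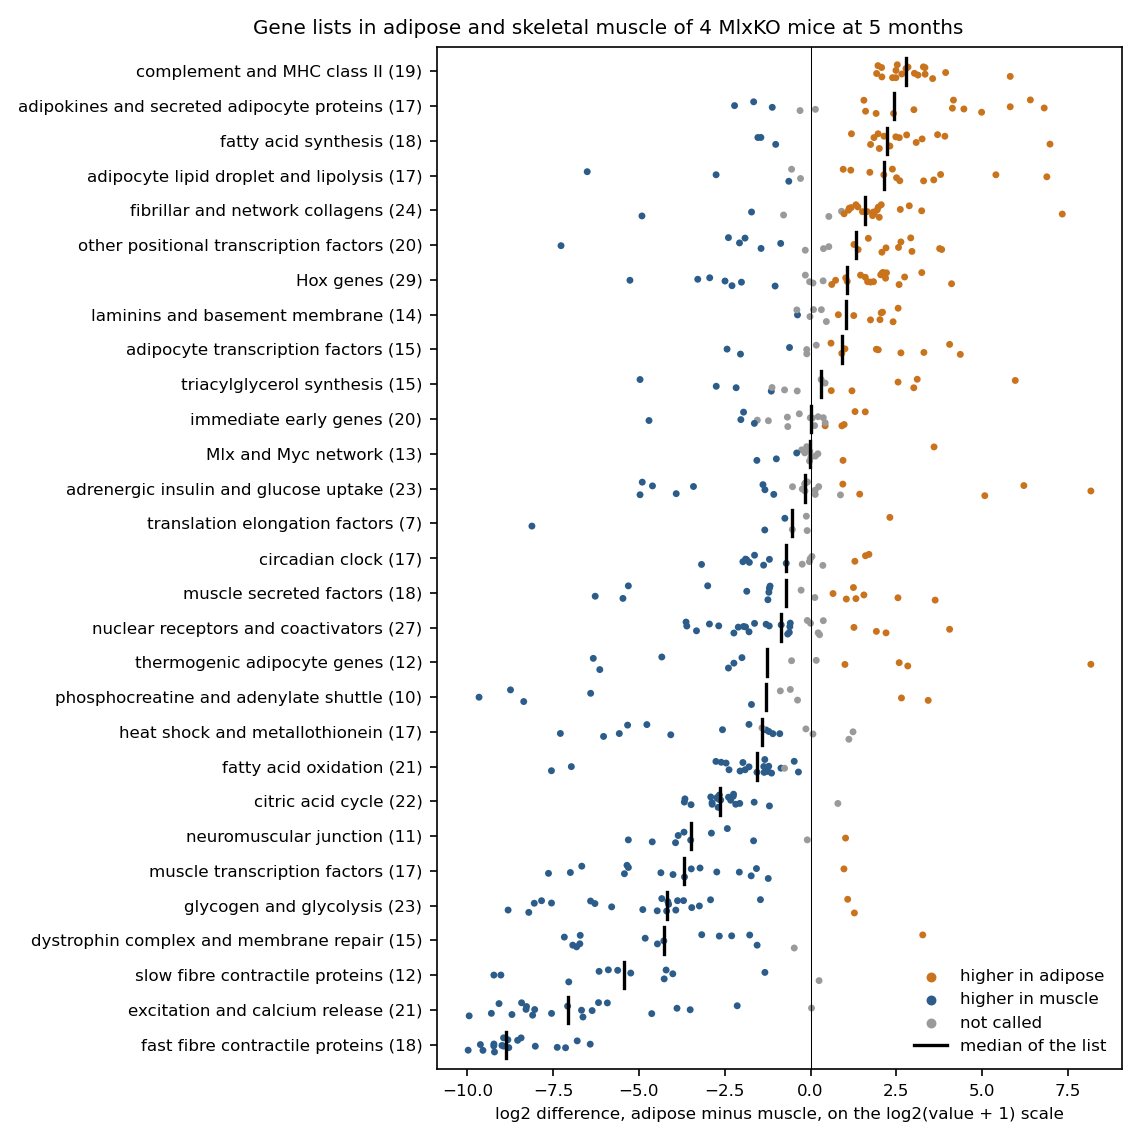
Each point is the log2 difference (adipose minus muscle, horizontal axis) of 1 gene of a list, with the number of members tested in parentheses, the call as colour and the list's median as a black bar. The fast fibre list lies furthest to the left with a median of -8.88, and complement and MHC class II furthest to the right with a median of 2.78.

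The 12 genes with the largest differences in each direction, among those called beyond 2-fold with no overlap, came mostly from the lists described below. Toward adipose they were Adrb3, Col6a5, Scd1, Cidec, Retn, Adipoq, Pde3b, Pck1, Cdo1, Mmp12, Cfd and Sncg, from 8.17 down to 5.68. Cdo1, which makes taurine precursors from cysteine, was 913, 876, 680.0 and 652 in adipose and 10.6, 14.8, 13.5 and 8.501 in muscle, and Mmp12, the elastase of macrophages, was 49.8, 27.6, 109.7 and 110.2 and 0.154, 0.403, 0.0783 and 0. Toward muscle they included Myh4, Atp2a1, Ckm, Myh1, Ttn, Xirp1, Xirp2, Ryr1, Tnnt3, Mybpc1 and Actn3, from -9.98 to -9.23. Xirp1 and Xirp2, actin-binding proteins of the intercalated disc and of strained muscle, were highest in the muscle of mouse B, Xirp1 at 1933, 9429.7, 2526 and 4661.

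Genes of the contractile apparatus had the largest median difference of the lists examined. All 18 fast fibre genes tested were higher in muscle, with a median difference of -8.88 against 0.14 over all genes. Myh4 measured 63805, 68956, 69981 and 77597 in muscle, where no gene had a higher mean, against at most 239.6 in adipose (-9.98 ± 1.03, adjusted p = 0.00021). The difference was -14.37 in mouse A and -8.94, -8.26 and -8.33 in the others. Ttn, the giant spring of the sarcomere, differed by -9.55 ± 0.79, Tnnt3, the fast troponin T, by -9.23 ± 0.83, and Actn3, the alpha-actinin of fast fibres, by -9.23 ± 0.61. The smallest difference of the list belonged to the tropomyosin Tpm1 at -6.42 ± 0.20, which smooth muscle also expresses. The myosin heavy chain genes Myh1, Myh2 and Myh4 share long stretches of sequence, and their separate levels depend on how the counting assigned shared reads.

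Slow fibre genes were lower in level and varied more between mice. Of 12 tested, 11 were higher in muscle and Tpm3 was not called, with a median of -5.43. Myh7, the slow myosin heavy chain, was 1171, 107, 102 and 112 in muscle and at most 2.14 in adipose (-7.05 ± 0.75). The muscle of mouse A stood about 10-fold above the other 3. Tpm3, the slow tropomyosin with a form in most cells, measured 159, 142, 216 and 159 in adipose and 426, 127, 88.3 and 80.6 in muscle, where again only mouse A was high. Without mouse A the list's median was -4.86, and Tpm3 was then called higher in adipose.

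Genes that couple the nerve impulse to contraction were also higher in muscle. Of 21 genes of excitation and calcium release, 20 were higher in muscle, with a median of -7.08. Ryr1, the calcium release channel, was 5162, 5865, 5206 and 6634 in muscle and 1.37, 9.86, 13.01 and 17.3 in adipose (-9.30 ± 0.43, adjusted p = 8.6e-06). Cacna1s, its voltage sensor in the T-tubule, differed by -8.70 ± 0.29, the calcium buffer Pvalb by -9.08 ± 0.67, and the fast calcium pump Atp2a1 by -9.95 ± 0.90. Atp2a2, the pump of slow fibres, heart and most other cells, was the gene not called at 229.8, 262, 192 and 182 in adipose and 871, 156, 121 and 117 in muscle. Its muscle value in mouse A exceeded all adipose values and its other 3 muscle values fell below all of them.

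Of 11 neuromuscular junction genes tested, 9 were higher in muscle and 1 in adipose. Musk, the receptor kinase that assembles the junction, was 110.0, 142, 64.0 and 47.2 in muscle and 0.606, 1.404, 0.8295 and 1.83 in adipose. Chrnd, the delta subunit of the acetylcholine receptor, had no read in any adipose library and 5.07, 4.19, 4.62 and 3.69 in muscle, at least 44.7-fold higher when adipose is set to 3 reads per library. With that bound the median of the list was -3.69, against -3.49 as fitted. Ache, which breaks down acetylcholine at the junction, was 31.8, 36.4, 34.7 and 34.8 in muscle and below 1 in every adipose library (-4.61 ± 0.14). Agrn, the secreted organiser of the junction, which basement membranes of other tissues also hold, was the member higher in adipose (1.02 ± 0.17).

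In the dystrophin complex and membrane repair list, 13 of 15 genes were higher in muscle, with a median of -4.28. Trim72, which seals membrane tears, was 178, 238, 278 and 266 in muscle and below 1 in all 4 adipose libraries (-7.17 ± 0.11). The sarcoglycan Sgca, which spans the fibre membrane, differed by -6.93 ± 0.15. Dmd, dystrophin itself, differed less at -2.66 ± 0.11, and adipose expressed it at 16.8, 16.9, 16.1 and 19.2. Sntb1, a syntrophin of non-muscle cells, was higher in adipose at 28.97, 22.7, 38.9 and 33.9 against 3.69, 0.967, 1.96 and 3.21 in muscle.

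Muscle transcription factors were higher in muscle for 16 of 17 tested, with a median of -3.67 as fitted and -4.01 with Pax7 at its bound. Smyd1, a methyltransferase needed for sarcomere assembly, was 519.8, 455, 512 and 477 in muscle and 0.0957, 1.63, 1.99 and 3.32 in adipose. Vgll2, a cofactor of TEAD factors in muscle, differed by -6.67 ± 0.15. Myf6, the myogenic factor of mature fibres, was 150.1, 252, 175 and 191 in muscle and 0, 0.480, 0.8295 and 0.786 in adipose. Myod1, the myogenic determination factor, was 15.4, 218, 24.2 and 48.1 in muscle, highest in mouse B, and at most 0.133 in adipose. Pax7, which marks satellite cells, had no read in adipose and 2.23, 1.13, 1.88 and 2.996 in muscle, at least 20.9-fold higher. Tead4 went the other way at 18.9, 41.4, 14.4 and 9.49 in adipose and 7.84, 10.8, 5.48 and 12.5 in muscle, with overlapping values, and its call was lost when mouse A, B or C was left out.

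The enzymes that fuel contraction were also higher in muscle. Of 23 genes of glycogen metabolism and glycolysis, 21 were higher in muscle, with a median of -4.19. The list holds the muscle forms Pygm, Pfkm and Eno3 but not their partners Pygl, Pfkl and Eno1. Those partners were higher in adipose, at 3.47 ± 0.28, 1.81 ± 0.21 and 1.26 ± 0.21. Pygm, which releases glucose units from glycogen, was 10776, 9829, 11346 and 10865 in muscle and 6.06, 30.6, 33.5 and 40.6 in adipose (-8.81 ± 0.43). Pfkm, the committed step of glycolysis, differed by -8.05 ± 0.24, Eno3 by -7.84 ± 0.23 and Gapdh, often used as a reference gene, by -3.93 ± 0.20. Gapdh measured 279.6, 223, 389.6 and 344 in adipose and 4150.0, 4173, 6291 and 4157 in muscle, so no library of one tissue reached the level of the other. Hk1 and Pgm1 were the 2 members higher in adipose, Hk1 at 37.9, 35.4, 46.0 and 27.8 against 13.5, 24.7, 14.7 and 15.2.

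Among 10 genes of the phosphocreatine and adenylate shuttle, 5 were higher in muscle and 2 in adipose. Ckm, the muscle creatine kinase, was 19769, 19069.7, 25817 and 22805 in muscle, and its brain-type relative Ckb was higher in adipose at 67.4, 87.2, 47.2 and 125 against 6.22, 4.19, 6.89 and 8.22. Ckmt2, the creatine kinase of muscle mitochondria, differed by -8.74 ± 0.45. Ampd1, which deaminates AMP in working muscle, differed by -8.36 ± 0.39.

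The lists of oxidative metabolism had smaller median differences than the glycogen and glycolysis list, whose median depends on the muscle forms chosen for it. Of 22 citric acid cycle genes, 21 were higher in muscle, with a median of -2.65 and no called difference beyond -3.68 (Idh3a). Citrate synthase Cs, which opens the cycle, was 1061, 1125, 1023 and 972 in muscle and 153, 120.0, 155 and 142 in adipose (-2.87 ± 0.15). Of 21 fatty acid oxidation genes, 20 were higher in muscle, with a median of -1.56, although on plain CPM this count fell to 12 and 2 became higher in adipose. The 2 largest differences were those of Fabp3, the fatty acid binding protein of muscle (-7.55 ± 0.34), and Cpt1b, the muscle gate of fatty acid entry into mitochondria (-6.97 ± 0.18). The counterpart of Cpt1b used elsewhere, Cpt1a, was not in this list and was higher in adipose (1.78 ± 0.12). Acadvl, which starts the oxidation of very long chains, differed by -2.60 ± 0.14. Echs1, which hydrates the chain, differed by -0.35 ± 0.11, a direction that turned to 0.62 on plain CPM, 0.32 without the 20 most abundant genes and 0.15 with quantile normalization. Acsl1, which activates long-chain fatty acids for both storage and oxidation, was not called at 712, 549.7, 332 and 352 in adipose and 838, 536, 857 and 974 in muscle.

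Many of these steps are served by 2 genes, 1 used by muscle fibres and 1 used elsewhere. In 22 such pairs the level of the muscle form was expressed as a percent of the pair, after division by transcript length. The muscle form was higher in muscle in all 22 pairs, and its partner was higher in adipose in 17, higher in muscle in 4 and not called in 1. The percentages of adipose and muscle did not overlap in 21 pairs, Ldha and Ldhb being the exception. For cytochrome c oxidase subunit 6a, Cox6a2 made up 1.04 ± 0.669% of the pair in adipose and 95.4 ± 1.28% in muscle (mean ± SD, n = 4). Cox8b made up 2.39 ± 0.589% and 93.0 ± 1.48%. Among fatty acid binding proteins, Fabp3 made up 0.0415 ± 0.0304% of its pair with Fabp4 in adipose and 61.4 ± 5.56% in muscle. In the translation factor pair, Eef1a2 stood at 0.149 ± 0.0538% in adipose and 69.8 ± 6.03% in muscle. Ckm, which is among the fibre markers found in adipose, made up 0.781%, 23.2%, 42.4% and 25.2% of its pair in the 4 adipose libraries and 99.9 ± 0.0113% in muscle. The glycogen-targeting subunit Ppp1r3a made up 6.63 ± 3.17% in adipose and 28.3 ± 8.14% in muscle, and its partner Ppp1r3c was also higher in muscle. The lactate dehydrogenase pair differed least, with Ldha at 79.9 ± 7.88% in adipose and 88.8 ± 4.54% in muscle.

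**Figure D3:**
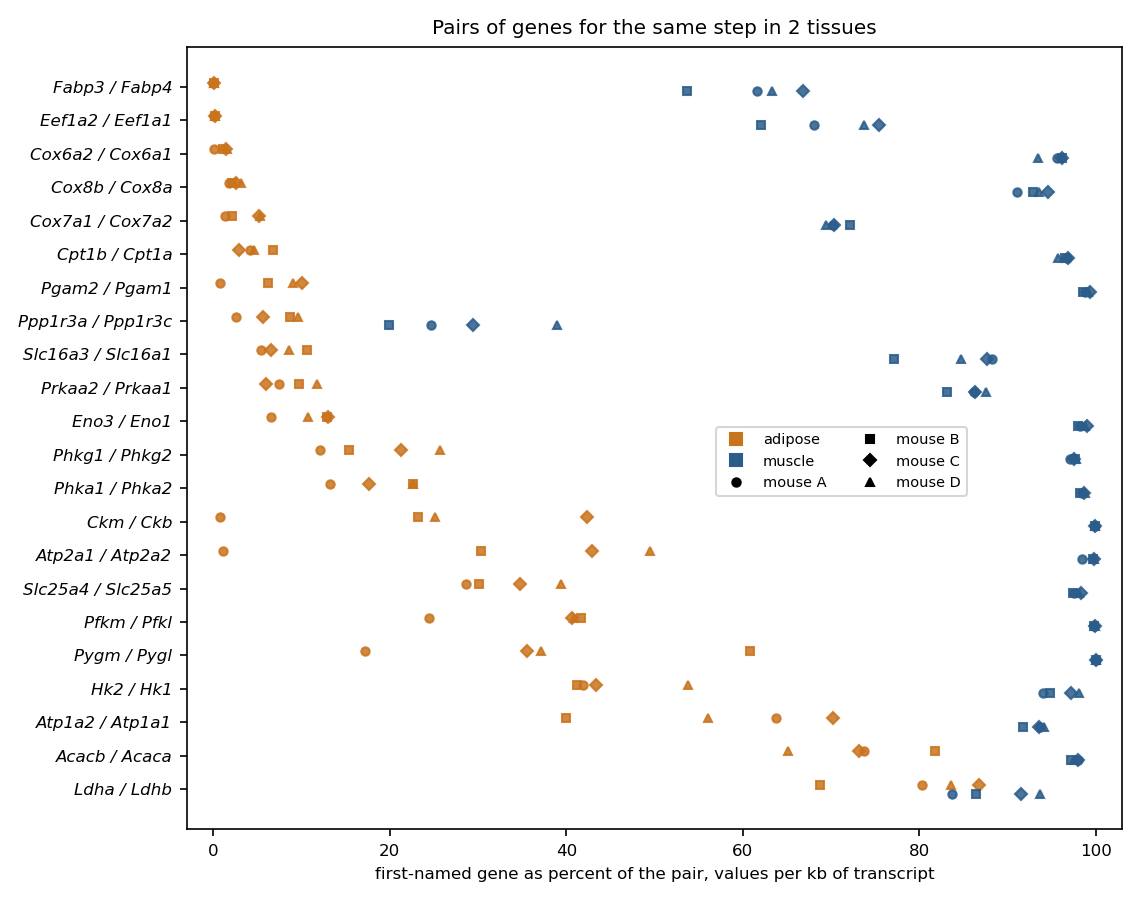
Percent of the pair's summed level per kb held by the first-named gene (horizontal axis), for 22 pairs, in adipose (orange) and muscle (blue), with 1 symbol per mouse. The muscle form holds over 80% of the pair in every muscle library in 17 pairs and under 50% in every adipose library in 17 pairs.

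The start regions of 3 such pairs are shown as examples. The genes of each pair do the same work and differed in opposite directions, as in 17 of the 22 pairs, although muscle also expressed Eef1a1. In all 3 the muscle form held fewer CG dinucleotides, so they do not stand for the 5 pairs in which it held more. The regions run from 250 bases before to 30 after the transcription start, 5′ to 3′ on the strand of the gene. They come from RefSeq on GRCm38.p6. Capitals mark each CG dinucleotide.
Eef1a2 (chr2:181156986-181157265, minus strand): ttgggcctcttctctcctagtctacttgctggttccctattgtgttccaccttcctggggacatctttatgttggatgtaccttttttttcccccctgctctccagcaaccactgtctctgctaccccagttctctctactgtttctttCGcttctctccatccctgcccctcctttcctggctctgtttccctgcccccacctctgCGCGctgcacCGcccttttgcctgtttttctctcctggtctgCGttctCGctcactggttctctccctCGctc
Eef1a1 (chr9:78481695-78481974, minus strand): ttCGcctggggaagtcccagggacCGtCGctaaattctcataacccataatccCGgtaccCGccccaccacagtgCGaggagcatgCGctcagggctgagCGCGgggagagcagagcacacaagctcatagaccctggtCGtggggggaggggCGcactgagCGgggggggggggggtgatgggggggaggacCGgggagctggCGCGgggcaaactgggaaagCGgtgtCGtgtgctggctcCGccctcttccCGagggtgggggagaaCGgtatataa
Cox8b (chr7:140900417-140900696, minus strand): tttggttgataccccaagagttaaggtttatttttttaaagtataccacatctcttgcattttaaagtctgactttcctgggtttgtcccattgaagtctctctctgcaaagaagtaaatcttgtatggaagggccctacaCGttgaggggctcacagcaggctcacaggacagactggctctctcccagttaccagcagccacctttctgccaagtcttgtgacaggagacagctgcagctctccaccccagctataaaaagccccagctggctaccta
Cox8a (chr19:7217587-7217866, minus strand): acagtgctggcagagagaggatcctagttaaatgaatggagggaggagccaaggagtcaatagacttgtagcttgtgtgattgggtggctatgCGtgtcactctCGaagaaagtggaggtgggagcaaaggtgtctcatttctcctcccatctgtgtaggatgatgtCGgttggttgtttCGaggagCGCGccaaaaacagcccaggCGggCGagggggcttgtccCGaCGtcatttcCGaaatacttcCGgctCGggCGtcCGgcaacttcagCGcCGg
Pgam2 (chr11:5803767-5804046, minus strand): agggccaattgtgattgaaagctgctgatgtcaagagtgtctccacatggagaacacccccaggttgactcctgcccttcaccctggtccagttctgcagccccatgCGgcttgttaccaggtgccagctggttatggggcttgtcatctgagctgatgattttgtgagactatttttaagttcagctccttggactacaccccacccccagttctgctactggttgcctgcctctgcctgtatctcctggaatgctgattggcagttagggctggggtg
Pgam1 (chr19:41911621-41911900, plus strand): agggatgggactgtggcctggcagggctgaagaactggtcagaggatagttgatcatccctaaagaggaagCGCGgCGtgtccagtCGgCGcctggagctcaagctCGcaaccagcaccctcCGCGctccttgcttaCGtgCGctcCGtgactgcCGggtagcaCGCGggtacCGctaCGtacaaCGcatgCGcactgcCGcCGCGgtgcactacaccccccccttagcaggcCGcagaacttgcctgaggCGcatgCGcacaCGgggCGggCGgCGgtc

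In the printed stretches Eef1a2 held 7 CG dinucleotides and Eef1a1 20, Cox8b held 1 and Cox8a 17, and Pgam2 held 1 and Pgam1 28. Both genes had a RefSeq promoter of 300 bases in 17 of the 22 pairs. The muscle form held fewer CG dinucleotides in 12 of these and more in 5 (Slc25a4, Ldha, Phka1, Hk2 and Acacb), with medians of 7 for muscle forms and 20 for their partners. These counts are for the first start listed for each gene, and other starts were not examined. At that start the partners Hk1 and Acaca each held 1 CG dinucleotide. Over the 10751 tested genes with a promoter the median was 20. It was 18 in the 1360 genes more than 2-fold higher in muscle and 16 in the 1309 more than 2-fold higher in adipose, both below that of all tested genes. CTA and TAG separated by 4 bases of any kind, a pattern that reads the same on both strands, was also counted. It is looser than the site of MEF2 factors and takes in other sequences. It was found in 5.515% of the promoters higher in muscle, 2.06% of those higher in adipose and 3.125% of all tested. CAGCTG, an E-box that also reads the same on both strands, was found in 17.35%, 19.02% and 15.35%. The printed Cox8b stretch holds CAGCTG at 2 places and that of Pgam2 at 1. A match of letters does not show that a factor binds there.

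Adipose was marked by the storage and release of fat. Of 17 lipid droplet and lipolysis genes tested, 12 were higher in adipose and 3 in muscle, with a median of 2.14. Cidec, which fuses lipid droplets, was 2872, 2433, 2562 and 2736 in adipose and 26.5, 24.3, 12.99 and 24.9 in muscle (6.88 ± 0.19, adjusted p = 1.5e-06). Plin1, the droplet coat of adipocytes, was 242, 50.02, 281 and 374 in adipose, lowest in mouse B, and 4.61, 1.93, 2.50 and 6.13 in muscle. Lipe, the hormone-sensitive lipase, differed by 3.59 ± 0.19, and Pnpla2, which starts triacylglycerol breakdown in both tissues, by only 1.17 ± 0.19. The 3 members higher in muscle were Fitm1, a droplet-forming protein of muscle (-6.51 ± 0.23), Plin5, the perilipin of oxidative tissue (-2.75 ± 0.13), and Plin3 (-0.63 ± 0.19), whose direction turned to 0.32 on plain CPM and 0.03 without the 20 most abundant genes.

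Fatty acid synthesis genes were higher in adipose for 15 of 18 tested, with a median of 2.23. Scd1, which makes monounsaturated fatty acids, was 22516, 6991, 23775 and 26043 in adipose and 147, 89.1, 116 and 248 in muscle (6.98 ± 0.29). No gene had a higher mean in adipose, and mouse B was the lowest. Fasn differed by 3.08 ± 0.28, the citrate carrier Slc25a1 by 3.25 ± 0.15 and G6pdx, a source of NADPH, by 3.91 ± 0.35. Tkt, the transketolase of the pentose phosphate pathway, differed by 3.70 ± 0.24. Acacb, whose product malonyl-CoA restrains Cpt1, was higher in muscle (-1.53 ± 0.17), as were Me1 and Acss2, although Acss2 was not called on plain CPM. Triacylglycerol synthesis was divided, with 6 of 15 genes higher in adipose and 4 in muscle. Pck1, which makes glycerol phosphate in adipocytes, was 1592, 681, 1506 and 1493 in adipose and 19.6, 16.8, 24.8 and 16.03 in muscle, whereas Gpd1, which makes the same product from glycolysis, was 81.2, 20.9, 114 and 154 and 450.3, 426, 573 and 591. Mogat1, which acylates monoacylglycerol, was 10.3, 4.14, 9.19 and 11.3 in adipose and 0.154, 0, 0 and 0.139 in muscle. The last acylation step was also split, since Dgat1 was higher in adipose (3.01 ± 0.19) and Dgat2 was not called at 38.5, 12.1, 71.8 and 92.4 against 147, 105, 82.4 and 59.997.

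Of 17 adipokines and secreted adipocyte proteins tested, 12 were higher in adipose, with a median of 2.42. Adiponectin, Adipoq, was 643, 532, 859 and 1075 in adipose and 6.07, 8.46, 5.64 and 12.9 in muscle (6.40 ± 0.20). Leptin, Lep, varied far more between mice at 112, 17.6, 336 and 480.3 and 2.77, 0.726, 3.21 and 11.4, with mouse B lowest in both tissues. Resistin, Retn, differed by 6.81 ± 0.30 and adipsin, Cfd, by 5.82 ± 0.15. Nampt (-1.12 ± 0.16), Apod (-2.21 ± 0.37) and Sfrp4 (-1.66 ± 0.33) were higher in muscle. Itln1, omentin, had no read in any of the 8 libraries.

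On the log2(value + 1) scale, the largest difference in favour of adipose among all genes tested belonged to a hormone receptor. The added 1 shrinks the differences of genes near 0 in muscle, such as Col6a5, so this ranking belongs to that scale. Adrb3, the beta-3 adrenergic receptor of adipocytes, was 754, 691, 485 and 386 in adipose and 1.77, 1.29, 0.235 and 0.836 in muscle (8.17 ± 0.16, adjusted p = 1.2e-06). Pde3b, the phosphodiesterase through which insulin restrains lipolysis, was 568, 747, 301 and 348 and 7.30, 7.42, 2.58 and 4.88. Slc2a4, the insulin-responsive glucose transporter, was 18.9, 13.5, 26.5 and 33.7 in adipose and 729, 611, 855 and 691 in muscle, with no overlap. Its partner in trafficking, Tusc5, was the reverse at 221, 87.3, 323 and 307 and 6.45, 4.60, 4.54 and 5.50. Over the whole list 5 of 23 genes were higher in adipose, 8 in muscle and 10 not called, and plain CPM turned this to 13 and 5. Insr, the insulin receptor, was not called (-0.16 ± 0.18).

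Brown and beige fat genes gave no common direction. Ucp1, the uncoupling protein of brown fat, stayed at or below 0.319 in adipose and below the filter. Of 12 thermogenic genes tested, 4 were higher in adipose and 6 in muscle. On plain CPM the counts were 5 and 6. Those higher in muscle included Cox7a1, Cox8b and Ucp3, which muscle fibres also use, at differences of -6.33, -6.14 and -4.33.

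Of 15 adipocyte transcription factors, 9 were higher in adipose and 3 in muscle, with a median of 0.91. Pparg, the master regulator of adipocytes, was 115, 123, 97.4 and 73.4 in adipose and 4.38, 8.63, 3.91 and 4.46 in muscle (4.05 ± 0.17). Tle3, a cofactor of Pparg, was 147, 187, 151 and 127 in adipose and 15.7, 24.2, 9.08 and 12.5 in muscle. Cebpa differed by 4.36 ± 0.26. Klf15, Cebpd and Cebpb, which hormones and stress also induce, were higher in muscle, but Cebpb turned to 0.36 on plain CPM and 0.06 without the 20 most abundant genes. Klf15 stood at 27.5, 78.0, 15.99 and 16.3 in adipose and 176, 176, 162 and 109 in muscle. Srebf1 was higher in adipose by 0.91 ± 0.11 and Mlxipl, the glucose-sensing partner of Mlx, was not called at 64.9, 49.1, 54.5 and 42.2 in adipose and 57.5, 35.9, 68.6 and 70.7 in muscle. Among 27 nuclear receptors and coactivators, 18 were higher in muscle and 4 in adipose, and on plain CPM 11 and 10. The estrogen-related receptors of oxidative genes, Esrra (-2.95 ± 0.16), Esrrb (-3.61 ± 0.20) and Esrrg (-3.32 ± 0.40), were all higher in muscle under every scaling tried.

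Of 24 collagens, 19 were higher in adipose and 2 in muscle, with a median of 1.58. Col6a5 was 173, 166, 339 and 125 in adipose and 0.307, 0.161, 0 and 0.209 in muscle, and Col4a1, a chain of every basement membrane, was 1231, 978, 2059 and 1174 and 309, 585, 233 and 314. The members higher in muscle were Col22a1, the collagen of the myotendinous junction, at 37.96, 37.7, 36.3 and 37.1 in muscle (-4.91 ± 0.14), and Col11a1. Of 14 laminins and basement membrane genes, 8 were higher in adipose and 1, Lama2, the laminin chain of the fibre's own basement membrane, in muscle (-0.38 ± 0.12), a direction that turned to 0.59 on plain CPM and 0.29 without the 20 most abundant genes. Lamb1 differed by 2.40 ± 0.13 and Lama4, a chain of vessels and adipocytes, by 2.06 ± 0.40. All 19 genes of complement and MHC class II were higher in adipose, more than 2-fold in each case, and no value overlapped. C3 was 1353, 1234, 1752 and 833 in adipose and 161, 255, 137 and 190.4 in muscle. C4b and Cfb differed by 3.94 ± 0.32 and 3.56 ± 0.24. H2-Aa, which presents antigen, differed by 3.34 ± 0.19, and 12 macrophage markers summed to 1003 to 1977 in adipose and 173 to 303 in muscle. The part of macrophages in these differences was not tested. Of 18 factors known as secreted by muscle, 9 were higher in muscle and 7 in adipose, and on plain CPM 8 and 9. Mstn, the brake on muscle growth, was 98.0, 144, 69.8 and 72.5 in muscle and at most 0.378 in adipose, and Fndc5, the precursor of irisin, differed by -5.47 ± 0.17. Igf1 was 79.6, 41.1, 98.3 and 109 in adipose and 9.91, 7.42, 13.3 and 23.3 in muscle and Gdf15 18.4, 12.4, 21.6 and 8.32 and 0, 0.242, 0.391 and 0.348.

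Genes that record position along the body differed between the tissues by their number. Hox genes sit in 4 clusters and are numbered by paralog group, low numbers being used toward the head and high numbers toward the tail and the ends of the limbs. Of 39 Hox genes 29 were tested, with 18 higher in adipose and 7 in muscle. In paralog groups 1 to 8, 17 of 19 were higher in adipose, none was higher in muscle and 2 were not called. In groups 9 to 13, 1 of 10 was higher in adipose, 7 were higher in muscle and 2 were not called. Hoxc8 was 36.1, 21.6, 64.2 and 48.6 in adipose and 1.998, 1.37, 0.861 and 1.32 in muscle (4.11 ± 0.31). Hoxc10, the second gene beyond it in the same cluster, was 0.861, 0.776, 1.73 and 0.378 in adipose and 65.7, 64.0, 81.6 and 74.4 in muscle (-5.26 ± 0.17). Hoxb8 differed by 3.24 ± 0.26 and Hoxa10 by -3.29 ± 0.15. Hoxa13, the last of its cluster, was 3.07, 4.92, 4.38 and 3.69 in muscle and at most 0.0369 in adipose. Hoxb9 was the exception in the high groups, at 6.92, 16.1, 2.59 and 14.9 in adipose and 0.461, 0.645, 0.548 and 0.627 in muscle. Summed over all Hox genes, groups 1 to 8 made up 89.3 to 91.8% of the level in adipose and 28.02 to 33.7% in muscle, a share that does not depend on the scaling of the libraries.

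**Figure D4:**
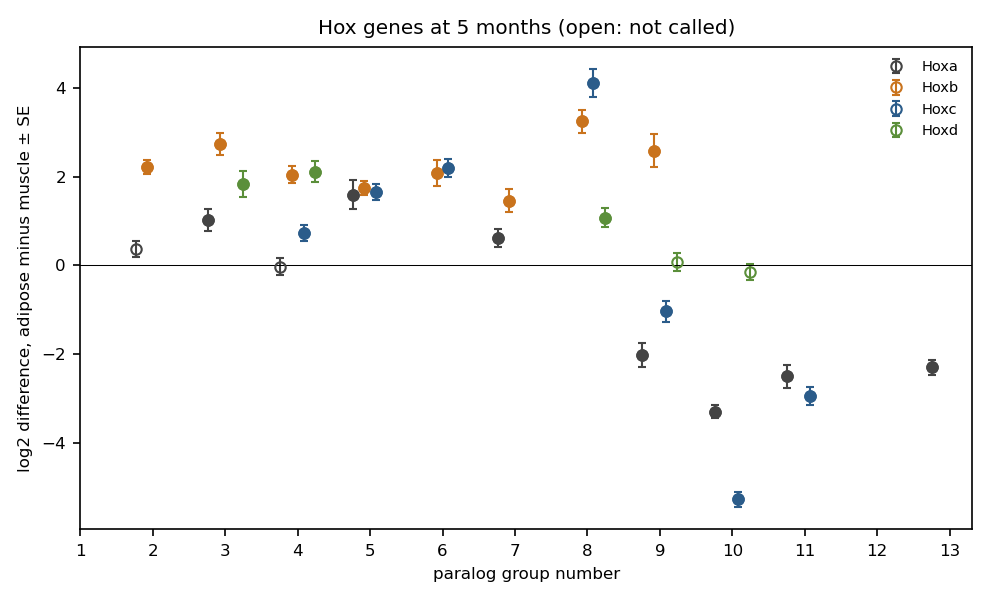
Log2 difference (adipose minus muscle, ± SE, vertical axis) of the 29 Hox genes tested against paralog group number (horizontal axis), coloured by cluster, with open circles for genes not called. In groups 2 to 8 every called gene lies above 0, up to Hoxc8 at 4.11, and from group 9 on all called genes but Hoxb9 lie below 0, down to Hoxc10 at -5.26.

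Of 20 other transcription factors of position tested, 11 were higher in adipose, 6 in muscle and 3 not called. Wt1, a factor of the mesothelium and visceral fat, was 13.4, 12.9, 19.01 and 7.42 in adipose and had no read in muscle, at least 57.6-fold higher when muscle is set to 3 reads per library. Tcf21 was 5.998, 6.80, 3.45 and 5.09 in adipose, again with no read in muscle, and Gata6 differed by 3.82 ± 0.17. Meis2, which binds DNA together with Hox proteins, was 11.9, 10.6, 14.1 and 9.69 in adipose and 1.08, 0.242, 0.313 and 0.976 in muscle. Tbx15, a factor of fast fibres and of subcutaneous fat, was 263, 239, 274 and 301 in muscle and 0.0957, 1.03, 0.597 and 1.601 in adipose (-7.27 ± 0.20). Zic1 and En1 were also higher in muscle, at no more than 6.34 and 6.53 in value.

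Mlx is the gene targeted in these mice. Its value over the whole gene was 8.20, 10.97, 8.53 and 8.79 in adipose and 9.91, 9.11, 11.6 and 7.04 in muscle (-0.03 ± 0.17, adjusted p = 0.886), and the difference was 0.87 on plain CPM and 0.60 without the 20 most abundant genes. The loxP sites flank exons 3 and 6 of Mlx, and a value over the whole gene does not separate deleted from intact transcripts. How complete the deletion was in each tissue was not analysed here, and it is not assumed to be equal. Of 13 genes of the Mlx and Myc network tested, 2 were higher in adipose, 3 in muscle and 8 not called, but on plain CPM 11 were higher in adipose and 1 in muscle. Mlxip, the partner of Mlx that is best known in muscle, was higher in muscle (-1.56 ± 0.20) and Mycl in adipose (3.599 ± 0.17). Txnip, a glucose-induced target of the Mlx partners, was among the most abundant genes that were not called, at 1758, 1991, 1612 and 1414 in adipose and 2039, 1890.0, 1925 and 1717 in muscle. The other such genes were Car3, Neat1, Eef2 and Tns1. Of 17 circadian genes, 9 were higher in muscle and 3 in adipose, with Arntl at -1.97 ± 0.16 and Per2 at 1.70 ± 0.29, and on plain CPM 6 and 8. Nfil3, which represses clock output genes, was 14.9, 40.1, 10.8 and 7.28 in adipose and 144, 293, 107 and 91.7 in muscle, and mouse B was highest in both. Nr1d1, which represses Arntl, was 38.4, 48.8, 65.2 and 55.5 in adipose and 168, 105, 284 and 273 in muscle. Immediate early genes gave no stable balance. Of 20, 5 were higher in adipose and 4 in muscle, but without mouse A 2 and 4, without mouse C 3 and 7, without mouse D 3 and 4, on plain CPM 9 and 3 and with median-of-ratios scaling 2 and 4. Atf3, a stress-induced factor, was 12.6, 12.9, 17.4 and 10.8 in adipose and 147, 780.5, 261 and 627 in muscle, and Btg2 was 52.6, 75.9, 65.4 and 45.5 and 175, 695, 104 and 91.1. Of 7 translation elongation factors, 1 was higher in adipose and 3 in muscle, and on plain CPM 3 and 2.

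Within a tissue the 4 mice did not always lie together. Besides Myh7, the muscle of mouse A was high in other slow fibre genes, such as Tnni1 (106, 7.82, 16.1 and 15.4), Tnnc1 (97.7, 9.19, 17.5 and 13.4) and Myl3 (267, 43.1, 58.003 and 48.4). The muscle of mouse B, and less so that of mouse D, was high in heat shock genes. Hspa1a was 120.2, 4176, 168 and 1085 in muscle and 11.01, 12.5, 13.2 and 6.87 in adipose, and Dnajb1 23.6, 692, 15.5 and 88.4 in muscle. Hspa1a and Hspa1b are nearly identical and share reads. Of 17 heat shock and metallothionein genes, 12 were higher in muscle and none in adipose, and without mouse B 12 and 3, while on plain CPM the counts were 8 and 3. Those with the largest differences, Hspb6 (-7.29 ± 0.22) and Cryab (-6.03 ± 0.42), are small heat shock proteins of muscle fibres. The muscle of mouse C was highest in hepatocyte markers, with Alb, albumin, at 0.999, 24.9, 222 and 27.5 in muscle and 9.06, 1.995, 41.5 and 33.4 in adipose and 9 hepatocyte markers summing to 2.61, 36.04, 386 and 41.7 in muscle. Mup7, a major urinary protein made by liver and a member of a family of near-identical genes, was 0, 4.43, 112 and 3.97 in muscle. In adipose the gene with the largest range outside muscle genes was Calml3, a calmodulin-like protein of epithelia, at 15.98, 30.7, 0 and 59.9. Cuzd1 was 19.9, 47.8, 0.0332 and 53.6, both at or near 0 in mouse C. The epithelial keratins Krt8, at 24.8, 54.5, 7.73 and 64.3, and Krt18, at 14.7, 34.7, 2.82 and 34.3, which mesothelium also makes, were lowest in mouse C, whereas the 12 mesothelial markers together were lowest in mouse A, at 138, 241, 212 and 212. The 8 epididymis and testis markers summed to 0.0638, 1.18, 0.0664 and 6.52 in adipose, and all were at 0 in muscle. The part of other tissue in these values was not tested. The adipose of mouse B was the lowest for 8 of the 11 adipocyte markers, and for G0s2 (51.1, 9.90, 195 and 247), Sncg (252, 81.7, 454 and 625) and Cebpa (327, 132, 388 and 341), which were chosen after their values were seen. It was not low for all adipocyte genes, since Pparg (115, 123, 97.4 and 73.4) and Pde3b were highest in mouse B. Besides Tead4 and Tpm3, leaving out 1 mouse changed the call of few genes named here. Without mouse A the calls of Echs1, Lama2, Plin3, Errfi1, Cuzd1 and Tmem132b were lost and Atp2a2 was called higher in adipose at 0.68. Without mouse B the calls of Echs1, Cuzd1 and Tmem132b were lost, and Acsl1 was called higher in muscle at -1.02 and Car3 and Tns1 higher in adipose at 1.66 and 1.17. Without mouse C Echs1 (-0.29) and Lama2 (-0.41) were no longer called. Without mouse D Lama2, Cuzd1 and Tmem132b were not called and Dgat2 was called higher in muscle at -1.70. The part of cell makeup in these differences was not tested.

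**Figure D5:**
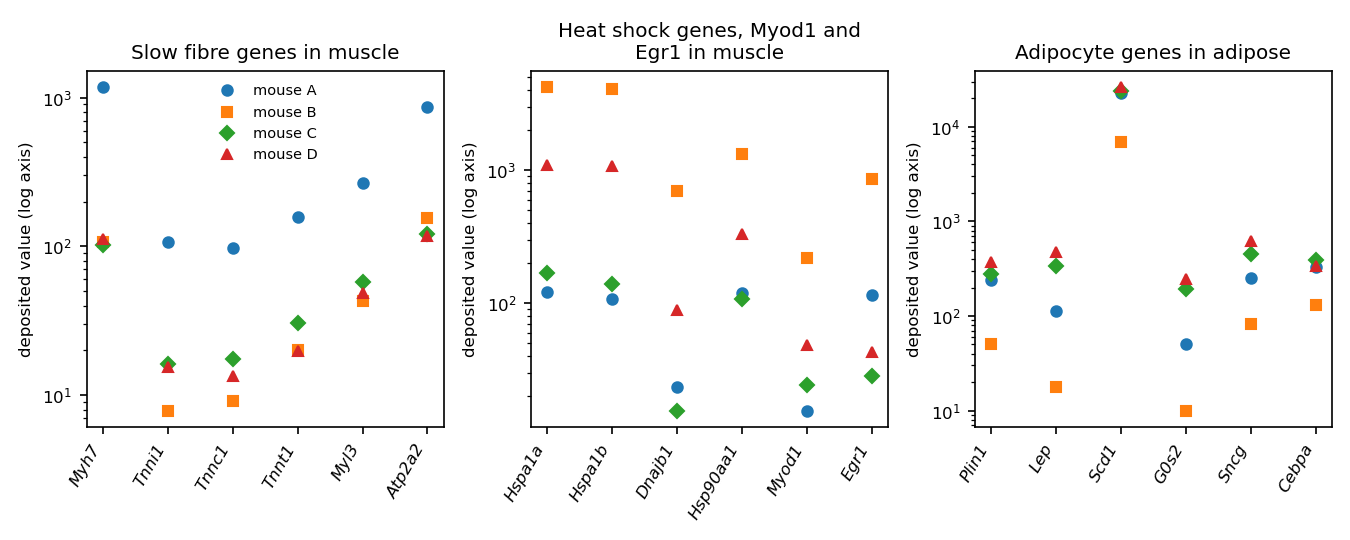
Deposited values (logarithmic vertical axes) of 6 genes in each of 3 panels, with 1 symbol per mouse: slow fibre genes in muscle, 4 heat shock genes, Myod1 and Egr1 in muscle, and adipocyte genes in adipose, all chosen after their values were seen. Mouse A is the highest in the first panel and mouse B the highest in the second and the lowest in the third.

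Since each mouse gave both tissues, a difference between mice that is shared by adipose and muscle could be tested. None of the 13551 genes was called (0.0%), with 1222 at an unadjusted p below 0.05 and a smallest adjusted p of 0.357 in limma. On the recovered reads edgeR called 0, with 1182 at an unadjusted p below 0.05, and DESeq2 called 353. The 8 genes with the smallest p were Per1, Ifi205, Nfil3, Errfi1, LOC108169013, BC018473, Map3k6 and Slc15a2, and, as a description of values that chose them, each was highest in mouse B in both tissues. Per1, a clock gene that glucocorticoids induce, was 110.1, 184, 63.2 and 44.9 in adipose and 117, 238, 66.8 and 61.1 in muscle, an order of mice that was the same in both. Errfi1, an inhibitor of the EGF receptor, was 64.4, 185, 47.9 and 42.6 and 129, 223, 65.7 and 58.1. In the liver libraries of the same mice, which the test did not use, 7 of the 8 were again highest in mouse B, Ifi205 being the exception, and Per1 was 28.5, 68.0, 19.7 and 23.4. Of the 11695 tested genes that reached a value of 1 in the liver of any of these mice, 36.1% were highest in mouse B.

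The same comparison at 20 months used 5 adipose and 5 muscle libraries of other MlxKO mice. The age is the one in the sample titles, and the sample codes carry a lower number in its place. These codes share no animal number between the tissues, so whether a mouse gave both is not known. There, 5978 of 13527 genes (44.2%) were higher in adipose and 5213 (38.5%) in muscle. Of 1664 genes more than 2-fold higher in adipose at 5 months and tested at 20 months, 1643 were higher in adipose again and 1 was higher in muscle. Of 1686 more than 2-fold higher in muscle, 1670 were higher in muscle again and 1 in adipose. In all, 57 of the 13105 genes tested at both ages were called in opposite directions, and a difference between the ages was not tested. They included Tmem132b, Slc22a4, Igfals, Mmp13 and Vegfa. Vegfa, the growth factor of vessels, was 395, 351, 422 and 339 in adipose and 153, 110.4, 231 and 279 in muscle at 5 months and had means of 126 ± 49.7 and 303 ± 32.5 (SD, n = 5) at 20 months. Adrb3 was higher in adipose again, with a mean of 155 ± 114 in adipose and 0.111 ± 0.0803 in muscle. Hoxc8 and Hoxc10 differed by 4.497 and -5.85. The 18 fast fibre genes and the 19 complement and MHC class II genes were all called the same way at both ages, and of the 25 Hox genes called at 5 months 22 were. The share of all called genes that kept their call was not counted, so these counts do not set the lists apart.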

How the data were processed

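RNA sequencing of adipose, liver and skeletal muscle of male MlxKO mice was deposited as 1 table of 36333 genes in 27 samples. The deposited signal is reads per gene as CPM, divided by a factor per sample, as the authors' software (CLC Genomics Workbench, per the file headers and the study's methods) exported it. The annotation and the strand setting of that counting are not given in the sources used here, and the submitters' processing notes name GRCm38.p6. All values in the 27 samples were whole multiples of 1 read within a tolerance of 0.02, so reads were recovered. The test had been planned for CPM and was kept for this unit.

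Values were tested on the log2(value + 1) scale with limma 3.58.1 in R 4.3.3 with a variance trend, terms for mouse and tissue, keeping genes that reached 1 in 4 or more of the 8 libraries. Differences beyond 2-fold used limma's treat, the mouse test was the moderated F of the mouse terms, and the 20-month samples were compared unpaired, 5 against 5. P-values were Benjamini-Hochberg adjusted over all genes tested, with a threshold of 0.05. The recovered counts from the deposited values were tested with edgeR 4.0.16 and DESeq2 1.42.0. The limma tests were also run on simulated reads in which few genes differed between tissues. Far more genes were called here, so that run does not check the counts reported. Other alternatives changed the scaling, pseudocount, filter, variance trend, block or mice used.

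Mouse numbers in the labels pair the tissues of 1 animal. Deviations from the tissue means of the same mouse correlated at 0.248, 0.198, 0.057 and 0.151, and those of different mice at -0.258 to 0.356, so the pairing rests on the labels. Each sample is 1 animal, and no pair of libraries was identical. Levels in gene pairs were divided by the length of the longest protein-coding transcript of GENCODE vM21. The 29 gene lists, 22 pairs and 20 marker lists were chosen with earlier results of these data known. Genes were named by a rule: the 12 largest differences in each direction beyond 2-fold without overlap, the 4 largest of each list with members called against their list and those that define its roles, the 8 smallest p between mice, the 5 largest ranges over mice per tissue, the 5 most abundant genes not called, up to 5 genes with opposite calls at the 2 ages, and Mlx and its partners. Some genes that the rule took are not reported here. Other genes named, and those shown by mouse, were chosen after their values were seen. Promoters came from RefSeq on GRCm38.p6 and were matched by gene identifier for 10751 of the 13551 genes tested. Those of the pairs and the printed stretches were matched by symbol. Where a gene had several starts listed, the first was used.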

Additional observations from a re-analysis of the deposited data

Results flagged for a closer look

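In groups of 4 libraries, 1 library stood far from the other 3 by Dixon's test in 30 of 364 groups of values (182 genes in each tissue). Chance flags about 5% of groups of unselected genes, and since some of these genes were named for their spread between mice, their share cannot be read against it. In muscle, mouse A was highest for Myh7 (1171), Atp2a2 (871), Tpm3 (426), Myl3 (267), Tnni1 (106), Tnnc1 (97.7) and En1 (6.53). Mouse B was highest in muscle for Eef1a1 (754), Btg2 (695), Dnajb1 (692), Myod1 (218), Ifi205 (42.6), Hk1 (24.75) and Pparg (8.63), and lowest for Lipe (49.2) and Esrrb (9.92). Mouse C was highest in muscle for Gapdh (6291), Cox8b (429), Cox7a1 (254), Alb (222) and Mup7 (112), and lowest for Cidec (12.99). In adipose, mouse B was highest for Errfi1 (184.8), Per2 (67.2), Ifi205 (51.4), Myh7 (2.14), Tnnc1 (0.480) and Tnni1 (0.406), and lowest for Pck1 (681). Mouse C was highest in adipose for Gata6 (31.5). Most of these values belong to 3 muscle libraries and 1 adipose library.

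Vegfa was higher in adipose by 1.04 on the log2 scale in the mice of 5 months, with every adipose value above every muscle value, and the order was the opposite at 20 months. The difference between the ages was not tested.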

How the results depend on the processing

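The scaling of the libraries was the choice that moved the counts most. On plain CPM 9252 genes were higher in adipose and 1940 in muscle (4837 and 903 beyond 2-fold), and after rescaling without the 20 most abundant genes 8137 and 2481 (3807 and 1116). At 20 months plain CPM gave 9052 and 2646, and without the 20 genes 3430 were higher in muscle. No gene was called between mice in limma or edgeR, while DESeq2's likelihood ratio test called 353, and the cause was not tested. Under the other alternatives each count stayed within 1.5 times its reported value. Without 1 mouse, 4667 to 5428 genes were higher in adipose and 3782 to 4297 in muscle (1193 to 1844 and 1429 to 1636 beyond 2-fold).

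Of 3084 values of 182 named genes under the alternatives, 46 lost the call, 45 gained it and 23 changed sign with a call in at least 1 of the 2 fits. The other 2970 kept their side of the threshold and, where called, their direction. A change of sign in a gene called in neither fit was counted among the 2970. On plain CPM and without the 20 genes, respectively, the log2 difference turned to 0.36 and 0.062 for Cebpb, 0.62 and 0.32 for Echs1, 0.43 and 0.14 for Errfi1, 0.81 and 0.52 for Insr, 0.59 and 0.29 for Lama2, 0.87 and 0.60 for Mlx, 0.85 and 0.56 for Mlxipl, 0.73 and 0.43 for Per1, and 0.32 and 0.030 for Plin3. On plain CPM it turned to 0.097 for Slc15a2 and 0.81 for Txnip. With quantile normalization it turned to 0.15 for Echs1, 1.22 for Eef2 and 1.54 for Txnip.

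Without the replicate block, which pairs tissues by mouse, 5378 genes were higher in adipose and 4330 in muscle, and 1730 and 1667 beyond 2-fold. Among named genes the calls of Tead4, Errfi1, Ifi205 and Slc15a2 were lost and those of Acsl1, Car3, Eef2 and Tns1 gained. Depth limited genes with few reads, since 3 reads correspond to a value of about 0.1 in adipose and 0.2 in muscle.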
